A study of Mus musculus with 15 samples.

Results

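The Serpina3 cluster of mouse chromosome 12 is a tandem array of genes for clade A serpins, a family of protease inhibitors, and is described here in cultured lymph node lymphatic endothelial cells (LECs). Its 8 members in this account, Serpina3b, Serpina3c, Serpina3f, Serpina3g, Serpina3i, Serpina3k, Serpina3m and Serpina3n, were taken by gene symbol from a table of 45706 genes. The choice was made with their low values at the higher growth factor dose already known, so their change at that dose is a description and carries no test here. The table held 14 rows with a Serpina3 symbol, and the rest are given only where they bear on the members.

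Per the labels, the cells were Pdpn+ CD31+ CD45- cells from popliteal, inguinal, cervical, brachial and axillary lymph nodes, pooled from female C57Bl/6 mice whose age is not stated. They were kept in MEMα medium with 10% fetal bovine serum and were left unstimulated or received purified recombinant murine VEGF-C at 10 or 100 ng/mL for 72 h. VEGF-C is the secreted factor through which lymphatic endothelium is driven to grow, by way of its receptor Flt4. Each group had 5 libraries, lettered A to E, with totals of about 27784900 to 38590800 estimated counts. Nothing in the labels says that the libraries of 1 group were cultured separately, so errors and p-values cover the spread between libraries, which may be technical. Of the 11 lymphatic endothelial markers listed, 9 passed the filter on low counts, among them Prox1, Flt4, Lyve1, Pdpn, Pecam1 and Cdh5, while Ccl21a and Mmrn1 did not. Unstimulated library E and library D at 10 ng/mL differed most from the others of their groups (chi-square per degree of freedom against each of the others 42.3 to 62.6 and 43.4 to 49.1, beside 10.8 to 35.6 and 8.68 to 29.0 among the rest). Library B of the 100 ng/mL group had values of 41.3 to 118.6, beside 10.8 to 62.0 among the rest.

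Serpins inhibit by sacrifice. The target protease cuts an exposed stretch, the reactive centre loop, which then inserts into the body of the serpin and traps the enzyme, so the residues of the loop set which proteases are inhibited. Humans have a single SERPINA3 gene, for the acute-phase plasma protein alpha-1-antichymotrypsin, whereas in mice repeated duplication gave a cluster whose copies differ most in that loop. Serpina3n encodes a secreted inhibitor of granzyme B and other granule proteases. Serpina3g encodes an intracellular member, also known as Spi2A, that inhibits lysosomal cysteine cathepsins such as cathepsin B and cathepsin L. Serpina3k and Serpina3c encode secreted kallikrein-binding serpins. The targets of the products of Serpina3b, Serpina3f, Serpina3i and Serpina3m are less well defined.

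The cluster spans chr12:104112724-104414329 (GRCm38, GENCODE M21), or 301.6 kb, in which 10 of the 14 annotated genes are protein-coding and 4 are pseudogenes. Of the 8 members, 7 lie on the plus strand and Serpina3c on the minus strand. Serpina3k lies inside the annotated span of Serpina3m, and both models begin at position 104338486, so the values of these 2 genes are uncertain. The coding stretches for the reactive centre loop are given because they are where the members differ in sequence, and because the similarity around them bears on how well short reads can be told apart. In each, lower case marks the hinge stretch at the start and the end stretch after the variable part, which is in capitals. They are from GENCODE M21 on GRCm38, lie in the last exon of each gene, and are printed 5′ to 3′ along the gene.

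Serpina3g (chr12:104241066-104241164, plus strand, exon 5 of 5): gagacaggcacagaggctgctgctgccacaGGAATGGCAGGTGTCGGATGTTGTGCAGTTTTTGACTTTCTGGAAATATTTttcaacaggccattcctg
Serpina3f (chr12:104220239-104220340, plus strand, exon 6 of 6): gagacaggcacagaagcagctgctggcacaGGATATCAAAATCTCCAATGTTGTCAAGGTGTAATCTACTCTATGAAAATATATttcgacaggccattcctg
Serpina3i (chr12:104268474-104268572, plus strand, exon 6 of 6): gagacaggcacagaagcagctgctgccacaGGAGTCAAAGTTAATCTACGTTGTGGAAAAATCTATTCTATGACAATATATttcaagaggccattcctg
Serpina3n (chr12:104413442-104413540, plus strand, exon 5 of 5): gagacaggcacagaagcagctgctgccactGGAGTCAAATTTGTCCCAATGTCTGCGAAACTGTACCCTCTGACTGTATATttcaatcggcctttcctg
Serpina3c (chr12:104147304-104147393, minus strand, exon 5 of 5): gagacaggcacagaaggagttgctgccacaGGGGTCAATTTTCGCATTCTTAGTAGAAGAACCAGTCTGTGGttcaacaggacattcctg
Serpina3k (chr12:104345263-104345355, plus strand, exon 5 of 5): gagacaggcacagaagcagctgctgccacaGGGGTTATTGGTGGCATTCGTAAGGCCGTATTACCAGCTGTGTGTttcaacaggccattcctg
Serpina3m (chr12:104393763-104393861, plus strand, exon 5 of 5): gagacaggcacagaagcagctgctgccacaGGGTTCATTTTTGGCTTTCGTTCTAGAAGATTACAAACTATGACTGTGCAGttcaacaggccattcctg
Serpina3b (chr12:104138659-104138757, plus strand, exon 5 of 5): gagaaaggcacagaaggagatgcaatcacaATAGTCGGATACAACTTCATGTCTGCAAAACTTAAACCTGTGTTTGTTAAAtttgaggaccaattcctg

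The hinge stretches of 30 bases differed from that of Serpina3g at 2 positions in Serpina3i, Serpina3k and Serpina3m, at 3 in Serpina3f and Serpina3n, at 4 in Serpina3c and at 8 in Serpina3b. The variable part had 51 bases in Serpina3g, Serpina3i, Serpina3m, Serpina3n and Serpina3b, but 54 in Serpina3f, 45 in Serpina3k and 42 in Serpina3c. The end stretches of 18 bases differed from that of Serpina3g at 7 positions in Serpina3b and at 3 in Serpina3n. They differed at 1 position in Serpina3c, Serpina3f and Serpina3i, and at none in Serpina3k and Serpina3m. The coding sequence used for Serpina3g had 744 bases, beside 1224 to 1335 for the other members, so identities with Serpina3g cover only a part of theirs. Over 646 aligned coding bases, Serpina3g was 86.1% identical to Serpina3n, with 73.2% in this stretch and 88.3% outside it. Serpina3g and Serpina3f were 75.8% identical within it and 89.1% outside it, and Serpina3g and Serpina3i 72.7% and 88.9%. The closest pairs were Serpina3k with Serpina3m at 92.6% and Serpina3f with Serpina3i at 92.1%. In these pairs the stretch differed little from the rest, with 90.9% within it and 92.7% outside it, and 89.5% and 92.4%. For Serpina3b with Serpina3c the values were 79.8% and 80.1%.

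RefSeq promoter sequences (GRCm38.p6) were found for 6 of the 8 members, and not for Serpina3k and Serpina3m. The 250 bases before the start are shown for Serpina3g, Serpina3i, Serpina3f and Serpina3n, the members with the highest levels. Capitals mark matches to TTCNNNGAA, a palindrome of the form bound by STAT factors, or, on either strand, to an NF-kB form, GGG followed by 3 bases of any kind and TTCC. Matches to GAAA, 2 bases of any kind and GAAA, a form bound by interferon regulatory factors, and to TGANTCA, a form bound by AP-1, were searched on both strands as well.

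Serpina3g (chr12:104235897-104236146, plus strand): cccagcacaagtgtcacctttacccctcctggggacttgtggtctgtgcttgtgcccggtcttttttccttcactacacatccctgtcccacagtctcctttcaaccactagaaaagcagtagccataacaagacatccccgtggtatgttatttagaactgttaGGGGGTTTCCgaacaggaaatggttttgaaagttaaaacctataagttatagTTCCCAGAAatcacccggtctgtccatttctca
Serpina3i (chr12:104262872-104263121, plus strand): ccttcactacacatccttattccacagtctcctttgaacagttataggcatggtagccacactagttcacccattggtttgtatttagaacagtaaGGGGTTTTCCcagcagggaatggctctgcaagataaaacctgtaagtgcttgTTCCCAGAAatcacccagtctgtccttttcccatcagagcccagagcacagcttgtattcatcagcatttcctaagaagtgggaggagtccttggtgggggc
Serpina3f (chr12:104214294-104214543, plus strand): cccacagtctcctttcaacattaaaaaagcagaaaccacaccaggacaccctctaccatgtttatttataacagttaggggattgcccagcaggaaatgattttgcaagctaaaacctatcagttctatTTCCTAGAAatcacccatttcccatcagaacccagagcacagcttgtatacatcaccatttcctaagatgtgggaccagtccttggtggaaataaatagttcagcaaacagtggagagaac
Serpina3n (chr12:104406458-104406707, plus strand): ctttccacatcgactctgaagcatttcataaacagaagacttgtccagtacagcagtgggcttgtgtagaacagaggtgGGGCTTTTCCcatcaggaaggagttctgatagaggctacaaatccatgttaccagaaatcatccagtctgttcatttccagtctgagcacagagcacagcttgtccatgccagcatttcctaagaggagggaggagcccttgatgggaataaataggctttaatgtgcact

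TTCNNNGAA began at base -33 in Serpina3g, -102 in Serpina3i and -121 in Serpina3f, and the NF-kB form at -85 in Serpina3g, -154 in Serpina3i and -171 in Serpina3n. In Serpina3g and in Serpina3i the starts of the 2 matches were 52 bases apart, and no match overlapped another. TTCNNNGAA occurred in 4 of 9 windows of Serpina3 genes, 2 of these 4 being starts of Serpina3f, and in 7.02% of all 32851 promoter windows of this length. Several of the 9 windows resemble each other, as given below, so they are not independent. The NF-kB form occurred in 3 of the 9 and in 4.65% of all windows. The other motifs, present in 2.98% and 6.75% of all windows, were in none of the 9. A match is a run of letters and not a measured binding site. The windows of Serpina3f and Serpina3i were 81.7% identical over 219 aligned bases and those of Serpina3c and Serpina3n 92.7% over 247. Those of Serpina3g and Serpina3n were 59.0% identical over 205, and those of Serpina3g and Serpina3c 76.4% over 157. The Serpina3g window ends at position 104236146, before the GENCODE start at 104236245. Identities with that window may thus reflect an offset, and they do not measure how far the promoters differ.

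In unstimulated cells Serpina3g was the highest of the members. Compared per length, as RPKM (reads scaled by gene length and library total, as deposited), its libraries A to E read 37.4, 37.2, 36.9, 34.5 and 35.9. Serpina3f followed with 13.6, 13.3, 13.3, 11.998 and 12.09 RPKM. Serpina3i read 10.28, 10.62, 10.47, 9.31 and 10.47 RPKM. These 3 genes did not overlap in any unstimulated library. Serpina3n, the granzyme B inhibitor, was lower and more variable, with 2.78, 2.54, 2.77, 1.93 and 3.75 RPKM. Its lowest library was D and its highest E. The kallikrein-binding genes Serpina3c and Serpina3k had 0.986 ± 0.078 and 0.885 ± 0.086 RPKM (SD, n = 5), and Serpina3m 0.839 ± 0.063. The libraries of Serpina3c and Serpina3k overlapped, as did those of Serpina3k and Serpina3m, so the order of these neighbours lay within their spread. Serpina3b was lowest at 0.138 ± 0.017 RPKM, below every library of Serpina3m.

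At 10 ng/mL the levels lay close to the unstimulated ones. Serpina3g read 36.0, 39.2, 43.2, 35.4 and 36.4 RPKM in libraries A to E, with library C highest. Serpina3f read 13.8, 14.8, 15.5, 11.9 and 13.8 RPKM and Serpina3i 10.41, 11.26, 12.47, 10.31 and 10.01, so these 2 genes overlapped at this dose. Serpina3n read 2.59, 2.67, 2.89, 3.66 and 2.74 RPKM, with library D highest. All 4 ranges overlapped those of the unstimulated libraries.

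At 100 ng/mL the levels were much lower. Serpina3g read 1.22, 3.34, 2.43, 0.83 and 1.31 RPKM, all below the lowest library of either other group. Serpina3f read 0.427, 1.16, 0.928, 0.381 and 0.522 RPKM. Serpina3i read 0.462, 1.13, 0.983, 0.366 and 0.601 RPKM, so Serpina3f and Serpina3i overlapped. Library B was highest for all 3 genes and library D lowest. Serpina3n read 0.122, 0.519, 0.224, 0.110 and 0.131 RPKM, again with B highest and D lowest. Mean levels of Serpina3c, Serpina3k and Serpina3m were 0.0637, 0.0592 and 0.0661 RPKM, and that of Serpina3b 0.0101. As in the other groups, Serpina3g had the highest mean and Serpina3b the lowest.

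**Figure D1:**
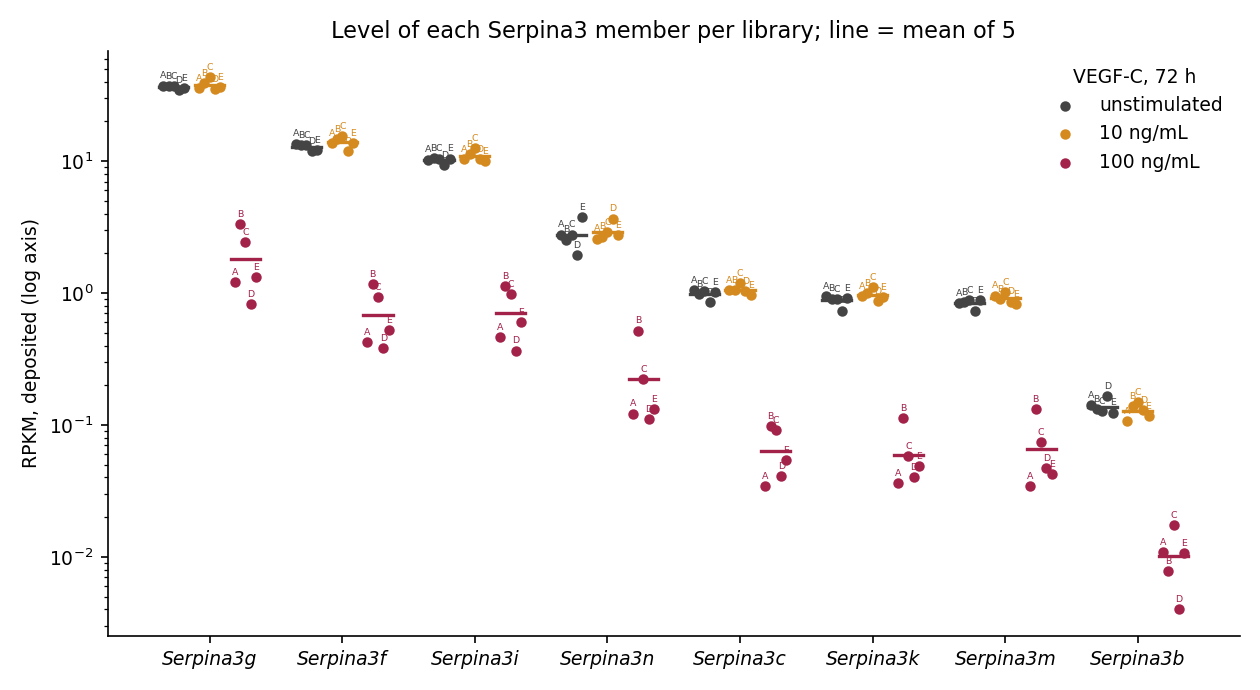
Level of the 8 members in each library, in deposited RPKM on a log axis. Points are libraries with their letters, horizontal lines are means of 5, and colours are the unstimulated, 10 ng/mL and 100 ng/mL groups. For Serpina3g the 100 ng/mL libraries lie between 0.83 and 3.34 RPKM and the unstimulated ones between 34.5 and 37.4.

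All 8 members were called lower at 100 ng/mL than without VEGF-C (edgeR, adjusted p under 0.05), where 21.5% of the 17650 tested genes were called lower. Since the members were chosen from this contrast, nothing is read from that count. All 5 libraries at 100 ng/mL lay below all 5 unstimulated ones for 8 of 8 members, a pattern shown by 13.7% of tested genes. In the same model, log2 fold changes (± SE) were -4.28 ± 0.28 for Serpina3g and -4.19 ± 0.24 for Serpina3f, which is 19.4-fold and 18.3-fold lower. They were -3.81 ± 0.23 for Serpina3i, -3.60 ± 0.33 for Serpina3n, -3.89 ± 0.18 for Serpina3c and -3.88 ± 0.21 for Serpina3k. Serpina3m had -3.58 ± 0.22. The range over the members was 11.9-fold to 19.4-fold, with a median log2 fold change of -3.88 beside 0.0078 for all tested genes. Serpina3g had the 24th lowest log2 fold change of all tested genes and Serpina3m, the least changed member, the 79th. In bulk RNA, fewer cells that express a gene and less of its RNA per cell cannot be told apart.

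Serpina3b, Serpina3c, Serpina3k and Serpina3m rested on few counts at 100 ng/mL, with at most 12.9 estimated counts in a library, and passed the filter on low counts through the other groups. For Serpina3b the 5 libraries at 100 ng/mL held 6 rounded counts together, beside 91 in the unstimulated libraries, and the log2 fold change was -3.89 ± 0.29. From the summed counts, its unstimulated level was 13.99 times that at 100 ng/mL, with an exact 95% interval of 6.19 to 39.1 that covers counting error only. For Serpina3m, with 32 and 447 summed counts, the ratio was 12.9 with an interval of 8.998 to 19.07.

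Library B was the highest of the 100 ng/mL group in CPM (counts scaled to a common library total) for 7 of the 8 members, all but Serpina3b. Without it the log2 fold change was -4.61 for Serpina3g and -4.17 for Serpina3n. With library D at 10 ng/mL, library B at 100 ng/mL and unstimulated library E all left out, the values were -4.62 and -4.04.

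Against 10 ng/mL, the 100 ng/mL libraries gave log2 fold changes of -4.38 ± 0.28 for Serpina3g and -3.71 ± 0.33 for Serpina3n, with the other members in between. Of the 8 members, 8 were called lower, beside 20.6% of tested genes, and this comparison shares its 100 ng/mL libraries with the one above. From 0 to 10 ng/mL no member passed the test, beside 0% of tested genes (edgeR, 0 calls; 844 genes had an unadjusted p under 0.05 and 10 were called by DESeq2, none of them a member). The lowest adjusted p among the members was 0.969. The log2 fold changes were 0.10 ± 0.24 for Serpina3g, 0.15 ± 0.20 for Serpina3f, 0.12 ± 0.19 for Serpina3i and 0.12 ± 0.27 for Serpina3n. Serpina3k had the largest value, 0.17 ± 0.16, and Serpina3b was the only member below 0, at -0.07 ± 0.17. No member had its 5 libraries at 10 ng/mL clear of the 5 unstimulated ones, as 1.31% of tested genes did. These standard errors leave room for differences of either sign at 10 ng/mL. They rest on a spread estimated over all 15 libraries, those at 100 ng/mL among them. The CPM of Serpina3g varied by 3.33% in unstimulated, 8.83% in 10 ng/mL and 56.5% in 100 ng/mL libraries (coefficient of variation). The errors are thus no measure of the spread in the unstimulated and 10 ng/mL libraries alone.

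**Figure D2:**
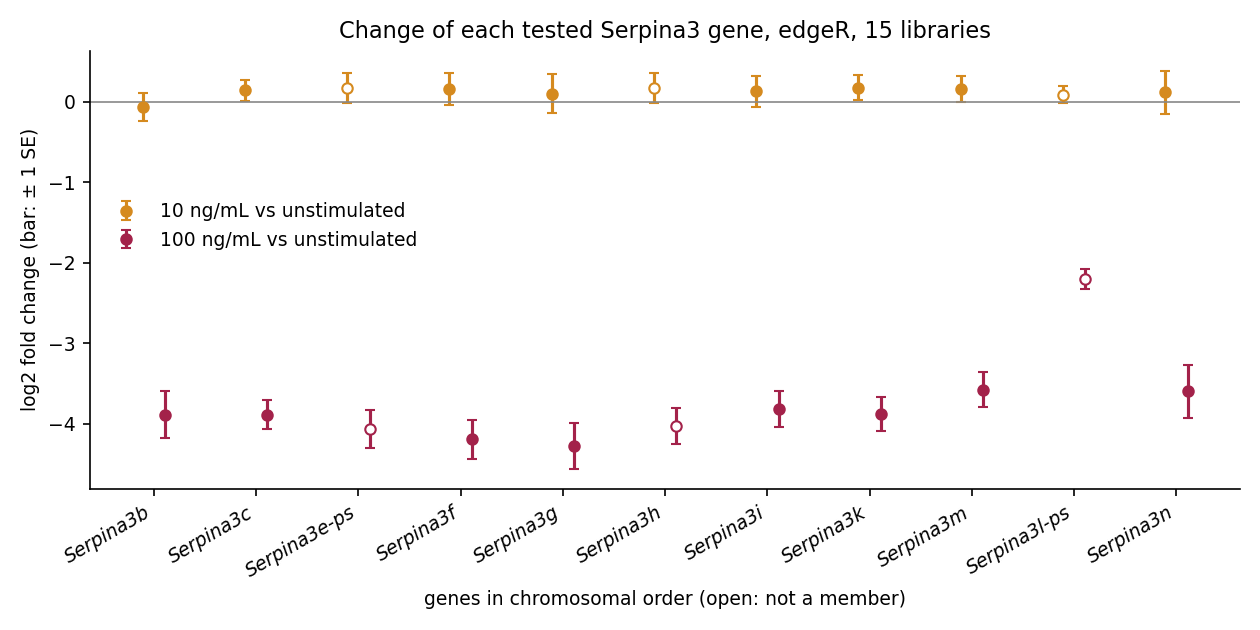
Log2 fold change of the 11 tested Serpina3 genes in chromosomal order, at 10 and at 100 ng/mL against unstimulated cells, with bars of 1 SE. Filled points are the members and open points are genes that are not. At 100 ng/mL all members lie between -4.28 and -3.58, and Serpina3l-ps lies at -2.21.

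Most members kept similar proportions to Serpina3g in unstimulated cells and at 10 ng/mL, with Serpina3n and Serpina3b the most variable. Serpina3g held 46.2% ± 0.77 (SD, n = 5) of all counts in the 14 Serpina3 rows without VEGF-C and 45.4% ± 0.27 at 10 ng/mL. Serpina3f held 17.8% ± 0.60 and 18.1% ± 0.87, and Serpina3i 13.7% ± 0.26 and 13.7% ± 0.30. Relative to Serpina3g, the count of Serpina3i varied over these 10 libraries by 2.72% (coefficient of variation), while its own CPM varied by 8.50%. The ratio of Serpina3f to Serpina3g varied by 4.37%, and those of Serpina3c, Serpina3k and Serpina3m by 5.08 to 6.15%. The ratio of Serpina3b, which rests on few counts, varied by 13.6%, and its own CPM by 12.9%.

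At 100 ng/mL the proportions differed. Serpina3g held 39.9% ± 2.9 of the counts of the cluster and Serpina3i 16.9% ± 1.2. The count of Serpina3i was 28.5 to 30.8% of that of Serpina3g in unstimulated libraries and 35.8 to 48.4% at 100 ng/mL, with no overlap. For Serpina3f the means were 38.4% ± 1.2 and 42.2% ± 4.9, and the ranges overlapped. These ratios come from the contrast that chose the members and are given as a description.

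Across the unstimulated and 10 ng/mL libraries, Serpina3n did not follow Serpina3g. Its count was 7.28, 6.70, 7.35, 5.48 and 10.23% of that of Serpina3g in unstimulated libraries A to E and 7.04, 6.68, 6.56, 10.15 and 7.36% at 10 ng/mL. Unstimulated E and 10 ng/mL D were the high libraries, the same 2 that differed most from the rest of their groups. The ratio varied by 20.4% over these 10 libraries, and the CPM of Serpina3n by 17.9%. In them the Pearson correlation (r) of log2 CPM with Serpina3g was 0.02 for Serpina3n and 0.27 for Serpina3b. It was 0.77 to 0.94 for the other members. At 100 ng/mL it was 9.80, 15.2, 9.03, 13.0 and 9.81%. Taken over all 15 libraries, the ratio to Serpina3n varied least for Serpina3m (16.7%), Serpina3k (17.7%), Serpina3i (19.4%) and Serpina3c (19.5%). It varied by 26.2% for Serpina3g, where the CPM of each member varied by 65.9 to 68.6%. The members were chosen as low at 100 ng/mL, so smaller values for ratios over all 15 libraries carry no test. Over the 10 unstimulated and 10 ng/mL libraries, these ratios varied by 15.7% for Serpina3m, 15.7% for Serpina3k, 16.7% for Serpina3i and 14.8% for Serpina3c. The CPM of these genes varied less there, by 9.49%, 10.7%, 8.50% and 8.72%.

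**Figure D3:**
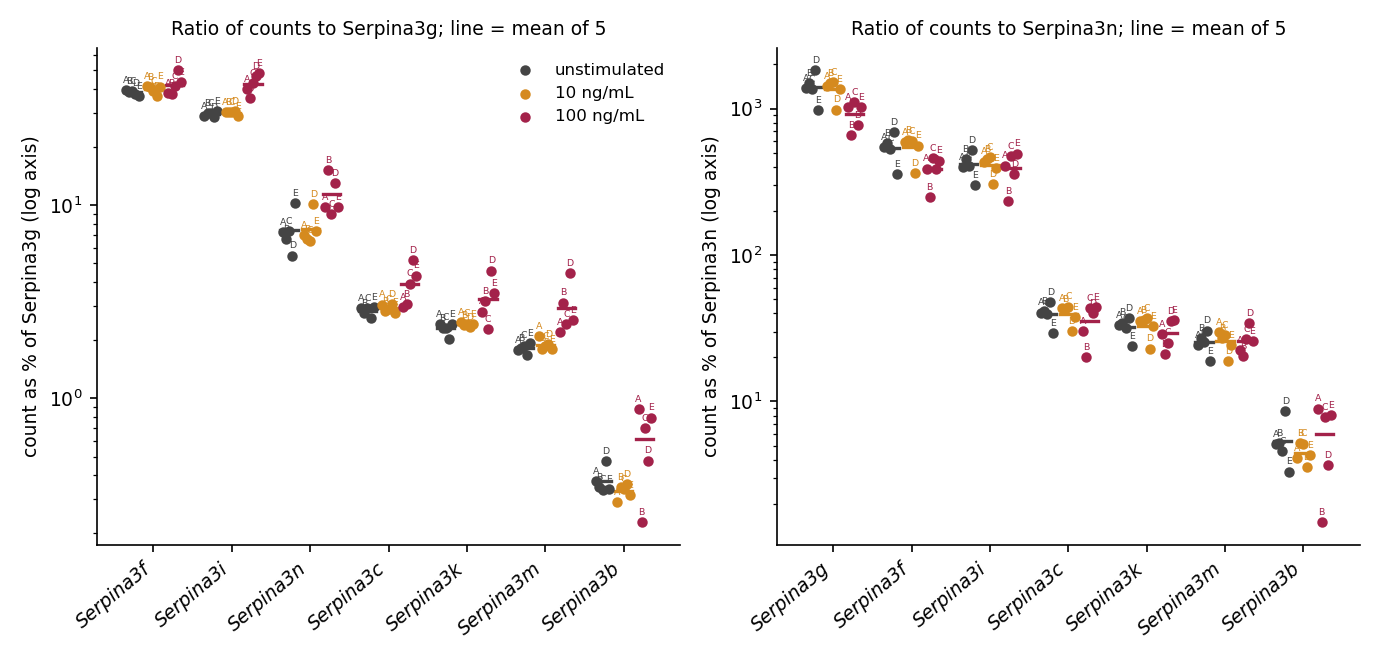
Estimated count of each member as a percentage of that of Serpina3g (left) and of Serpina3n (right) in each library, on log axes. Points are libraries with their letters and lines are means of 5 libraries per group. The points for Serpina3i against Serpina3g sit at 28.5 to 30.8% in unstimulated libraries and at 35.8 to 48.4% at 100 ng/mL.

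Reads may be shared between these paralogs, and whether the deposited counts divided such reads was not given in the sources used here. Estimated counts of all 8 members were fractional in 15 of 15 libraries, as were 99.8% of values over all tested genes. In the annotated transcripts, 15.5% of the 50-base stretches of Serpina3g also occurred in another Serpina3 transcript. The share was 10.6% for Serpina3f, 15.9% for Serpina3i, 14.04% for Serpina3k and 19.1% for Serpina3m. It was 6.90% for Serpina3n, 4.25% for Serpina3c and 2.92% for Serpina3b. No such stretch occurred in a gene outside the family. For stretches of 100 bases the highest share among the members was 6.09%, in Serpina3m, and Serpina3b and Serpina3c had none. The part of shared reads in these proportions was not tested. With the counts of all 8 members summed, the log2 fold change at 100 ng/mL was -4.12 ± 0.28, and with all 14 rows summed it was -4.09 ± 0.27.

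The other Serpina3 rows included a coding pair close to 0 and several pseudogenes. Serpina3a and Serpina3j, both coding, had at most 2.63 and 13.4 estimated counts in any library and were not tested, and neither was Serpina3d-ps with at most 13.0. The pseudogenes Serpina3h and Serpina3e-ps had 24.2 ± 1.5 and 21.6 ± 1.2 CPM (SD, n = 5) in unstimulated cells and 1.48 ± 0.73 and 1.29 ± 0.67 CPM at 100 ng/mL, log2 fold changes of -4.03 ± 0.22 and -4.06 ± 0.23. They share 21.9% and 21.6% of their 50-base stretches with other Serpina3 transcripts, so their reads may be shared with the coding genes. Serpina3d-ps shares 0.572% and held 51 summed counts in unstimulated libraries and 4 at 100 ng/mL. That is a ratio of 11.8, with an exact 95% interval of 4.32 to 44.8 that covers counting error only. Serpina3l-ps, singled out after its values were seen, shares 0.823% and had a log2 fold change of -2.21 ± 0.13. Its count was 1.01% ± 0.034 of that of Serpina3g in unstimulated libraries and 5.16% ± 2.4 at 100 ng/mL (SD, n = 5).

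Genes around the cluster had smaller differences. Within 500 kb, 3 coding genes outside the cluster were tested. Dicer1, the endonuclease that matures microRNAs, had 99.1 ± 7.8 CPM without VEGF-C and 104 ± 7.5 CPM at 100 ng/mL (log2 fold change 0.07 ± 0.06, adjusted p = 0.386, edgeR). Ppp4r4, a regulatory subunit of protein phosphatase 4, had a log2 fold change of 0.18 ± 0.18 (adjusted p = 0.471, edgeR). Clmn, which encodes calmin, fell by 0.92 on the log2 scale, with an SE of 0.32 (adjusted p = 0.0319, edgeR). The 14 other clade A genes listed, among them the alpha-1-antitrypsin genes Serpina1a to Serpina1e, were not tested, since 13 of them had a maximum under 10 counts in any library and Serpina9 reached 12.7.

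The genes most like the members over the 15 libraries were found by the Pearson correlation of log2 CPM among 12007 genes with a mean of at least 1 CPM. Members, pseudogenes, Gm and Rik models and genes absent from GENCODE M21 were left out of that search. Over the unstimulated and 10 ng/mL libraries, the pseudogenes Serpina3e-ps, Serpina3h and Serpina3l-ps had r of 0.958, 0.940 and 0.791 with Serpina3g. For Serpina3g the first 5 were Edn1 (r = 0.995), H6pd (0.995), Plxnb2 (0.994), Tspan4 (0.993) and Icam1 (0.992). Edn1 encodes the vasoconstrictor endothelin-1, and its CPM was 920 ± 101.3 without VEGF-C, 1012 ± 183 at 10 ng/mL and 61.5 ± 34 at 100 ng/mL. Icam1, which encodes a leukocyte adhesion molecule, was among the first 5 for 6 of the 7 members searched, all but Serpina3n. For Serpina3n the first 5 were Clca3b (r = 0.992), Clca3a2 (0.990), Tspan4 (0.990), Clca3a1 (0.989) and Srgap3 (0.989). The points of these correlations share the split between 100 ng/mL and the other groups. Over the 10 unstimulated and 10 ng/mL libraries alone, r with Serpina3g was 0.527 for Edn1, 0.632 for H6pd, 0.661 for Plxnb2, -0.02 for Tspan4 and 0.617 for Icam1. In these libraries r with Serpina3n was 0.17 for Clca3b, -0.09 for Clca3a2, 0.18 for Tspan4, -0.18 for Clca3a1 and 0.32 for Srgap3.

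The listed granule protease and cathepsin genes did not move in 1 direction, and not all of them encode known targets of these serpins. The genes of cathepsin B and cathepsin L, named above as targets of the Serpina3g product, both rose at 100 ng/mL. In unstimulated cells the granule proteases were close to absent. Of 13 listed genes 11 were not tested, among them Gzmb, Elane and Ctsg with at most 0.971, 1 and 6.43 estimated counts in a library, and of the 2 tested ones Gzmm fell (log2 fold change -0.59 ± 0.21, adjusted p = 0.0347, edgeR). Of 13 tested genes in the list of lysosomal cathepsins and their cystatin inhibitors, 3 rose and 5 fell at 100 ng/mL, with a median log2 fold change of -0.14. Ctsb, for cathepsin B, rose from 847 ± 42 to 1675 ± 266 CPM (0.98 ± 0.10, adjusted p = 2.85e-06, edgeR). Ctsl, for cathepsin L, rose from 676 ± 93 to 1208 ± 206 CPM (0.84 ± 0.12, adjusted p = 5.97e-05, edgeR), and Ctsd by 0.63 ± 0.17. Ctss, Ctsc and Ctsh fell, with log2 fold changes of -1.81 ± 0.38, -1.48 ± 0.30 and -1.30 ± 0.13. No gene of either list was called at 10 ng/mL.

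Serpins of other clades were lower or not called. Of 14 tested genes of clades B to I, 9 fell and none rose at 100 ng/mL, with a median log2 fold change of -1.69. Serpinb2, for an inhibitor of plasminogen activators, had -3.45 ± 0.65. Serpinf1, for pigment epithelium-derived factor, had -2.24 ± 0.61, Serpinb6b -2.06 ± 0.15 and Serpinb8 -2.17 ± 0.21. Serpine2 had -0.65 ± 0.35 and was not called (adjusted p = 0.144, edgeR).

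SERPINA3 is known as an acute-phase gene under STAT3, and genes of that pathway were mostly lower at 100 ng/mL. Of 20 tested genes of STAT3 signalling and the acute phase, 15 fell and 1 rose (median log2 fold change -1.04). The shared cytokine receptor chain gene Il6st went from 1941 ± 331 to 537 ± 150 CPM (-1.85 ± 0.18), and its partner receptors Osmr and Lifr had -2.03 ± 0.22 and -2.09 ± 0.25. Complement C3, a classical acute-phase product, went from 494 ± 83 to 34.9 ± 6.1 CPM (-3.82 ± 0.21). Stat3 itself had -0.49 ± 0.08 and Jak1 0.28 ± 0.12 (adjusted p = 0.0672, edgeR, not called). Fgl2 was the gene that rose (3.49 ± 0.96, adjusted p = 0.00835, edgeR). Its libraries A to E at 100 ng/mL read 2.27, 1.14, 102, 3.65 and 22.3 CPM, beside 1.84 to 3.16 CPM in unstimulated cells, so libraries C and E carried the value. Without library C, a fit added after seeing the data, it was 1.66 ± 0.63 (adjusted p = 0.0481, edgeR).

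Among 25 tested interferon-gamma response genes, 20 fell and 1 rose (median -0.70). The guanylate-binding gene Gbp5 had -2.84 ± 0.16, Tgtp1 -1.54 ± 0.12 and Iigp1 -1.50 ± 0.12. Of 24 tested NF-kB pathway genes and targets, 15 fell and 2 rose (median -0.59). The adhesion molecule genes Vcam1 and Icam1 had -3.26 ± 0.42 and -1.47 ± 0.10, and Tnfaip3, a feedback inhibitor of NF-kB, -1.82 ± 0.16. Nfkb1 was at -0.07 ± 0.08 and was not called. Of 13 glucocorticoid response genes 3 rose and 4 fell (median -0.12), with Klf9 at 1.36 ± 0.14, Fkbp5 at 0.85 ± 0.11 and Sgk1 at -1.33 ± 0.15. These counts stand beside 21.5% of tested genes called lower and 21.4% called higher. None of these genes was called at 10 ng/mL. The part of STAT3, interferon-gamma, NF-kB and glucocorticoid signalling in the values of the members was not tested.

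Most fibroblast, mural and leukocyte markers fell at 100 ng/mL as well. Of 17 tested fibroblast and mural markers 14 fell and none rose at 100 ng/mL, and their sum over 18 genes was 3456 to 4972 CPM in unstimulated, 2920 to 4662 in 10 ng/mL and 1048 to 1681 in 100 ng/mL libraries. Dcn, a fibroblast matrix gene, went from 760 ± 259.8 to 30.9 ± 18 CPM. Acta2, for the actin of smooth muscle, went from 299.9 ± 64 to 18.7 ± 17 CPM. Of 10 tested leukocyte markers 8 fell and none rose, with sums of 46.9 to 145, 39.8 to 118 and 21.9 to 38.1 CPM, and the T cell markers Cd3e and Cd8a were among those not tested. Hepatocytes are a main source of several Serpina3 products in the body, and their marker Alb had at most 1 estimated count in any library. Of the 8 hepatocyte markers listed 2 were tested, of which Trf fell (log2 fold change -1.69 ± 0.18) and Apoa2 rose (1.88 ± 0.16). Of 9 tested lymphatic endothelial markers 6 rose and none fell. Of 17 mitochondrial and heat shock genes, listed as a sign of RNA quality, 11 rose and 1 fell at 100 ng/mL against unstimulated, and 1 rose and 1 fell against 10 ng/mL. Their sum was 9435 to 13417 CPM in unstimulated, 13540 to 17312 in 10 ng/mL and 13020 to 17723 in 100 ng/mL libraries. At 10 ng/mL against unstimulated 0 of the 17 were called, with a median log2 fold change of 0.39. The part of these cell types and of RNA quality in the values of the members was not tested.

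Within a group, the markers and the members can be set side by side. In unstimulated libraries A to E the sum of fibroblast and mural markers was 4972, 3456, 4874, 3556 and 3607 CPM. The leukocyte sum was 75.2, 46.9, 145, 98.3 and 76.2 CPM. Serpina3g had 144, 147, 146, 137 and 137 CPM, and the summed CPM of the 8 members was 264, 269, 268, 246 and 254. Libraries D and E of this group were thus lowest for the members and low for the fibroblast and mural sum. Library B was lowest for that sum and highest for the members. At 100 ng/mL library B was highest for the members (26.6 CPM, others 7.52 to 19.9) and for that sum (1681 CPM, others 1048 to 1343). It was lowest for the lymphatic endothelial sum (7081 CPM, others 9310 to 10406). Library C had 19.9 CPM for the members with the lowest fibroblast and mural sum, 1048 CPM. At 10 ng/mL library C was highest for the members (320 CPM) with a fibroblast and mural sum of 2935 CPM. Library D was lowest for both.

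**Figure D4:**
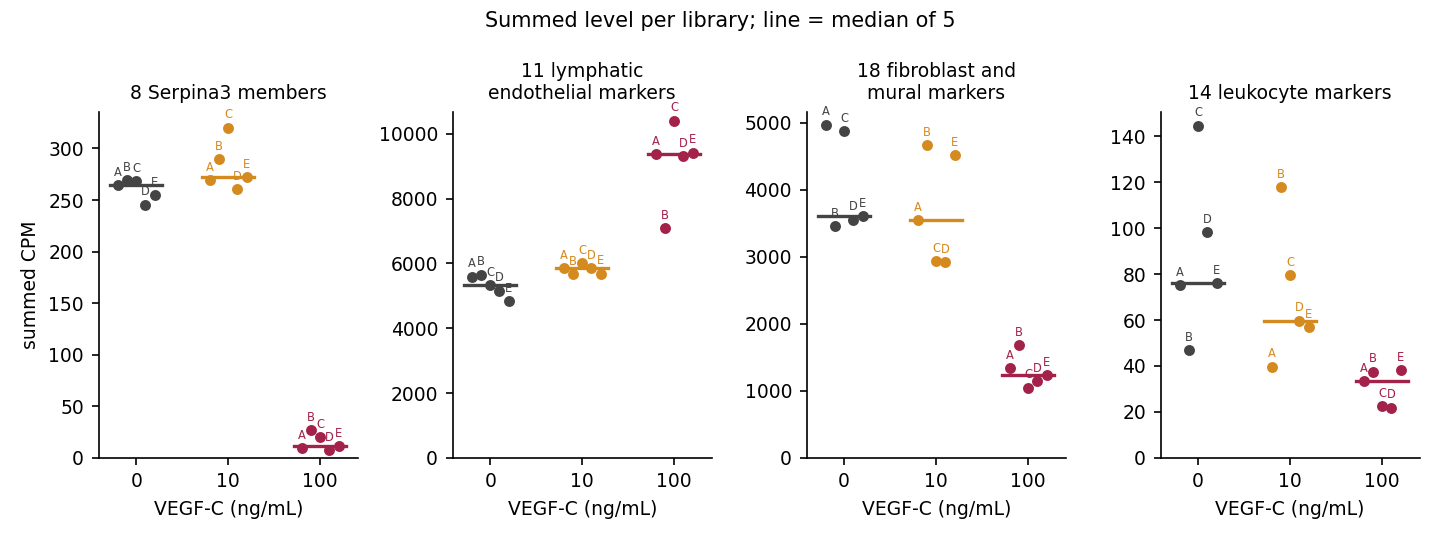
Summed CPM per library of the 8 members, of 11 lymphatic endothelial markers, of 18 fibroblast and mural markers and of 14 leukocyte markers, by VEGF-C dose. Points are libraries with their letters and lines are medians of 5. The summed members lie at 246 to 269 CPM in unstimulated libraries and at 7.52 to 26.6 CPM at 100 ng/mL.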

How the data were processed

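The authors deposited, per the file headers, a table that gives RPKM values and an estimated count for each gene in each library. Estimated counts deposited by the authors were mostly fractional, and their RPKM values scale counts by gene length and library total. The submitters' processing notes list Bowtie2, FastQC, limma and the builds mm10 and GRCm38. The counter, its use of strand, its rule for multiply matching reads and the gene annotation were not given in the sources used here. Values of 6719 genes were repeated in another deposited table, which was left out.

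Counts were rounded. Genes passed filterByExpr (17650 of 45706), libraries were TMM-scaled, and edgeR 4.0.16 (R 4.3.3) fitted all 15 libraries by quasi-likelihood with no term but group, with Benjamini-Hochberg adjustment over all tested genes and a threshold of 0.05. CPM values carry TMM scaling. The members and all gene lists were chosen with earlier results of these data known, so members carry no p-value at 100 ng/mL. From each list, up to 4 genes with the highest mean CPM and up to 4 called genes with the largest change and a mean of at least 1 CPM could be named. Marker lists were exempt. Some listed genes are not reported here. No pair of libraries agreed within counting noise (smallest chi-square per degree of freedom 8.68). Shared stretches, coding identity and motifs were computed in Python 3.11.15 with Biopython 1.88. The model was tested on simulated data. Alternatives used DESeq2 1.42.0, limma 3.58.1, other scalings, filters and pseudocounts, a replicate block, and removal of libraries.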

Additional observations from a re-analysis of the deposited data

Results flagged for a closer look

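In 3 cases 1 library lay far from the other 4 of its group for a member (Dixon's test at the 95% level, which chance alone passes in about 1 of 20 groups, with 24 groups examined). Serpina3c had 3.59 CPM in unstimulated library D, where the other 4 had 4.09 to 4.28 CPM. Serpina3k had 2.78 CPM in the same library, where the others had 3.33 to 3.49 CPM. Serpina3n had 2.04 CPM in library B at 100 ng/mL, where the others had 0.438 to 0.884 CPM. Without that library its log2 fold change at 100 ng/mL was -4.17 in place of -3.60.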

How the results depend on the processing

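Of 771 values recomputed under other settings, 765 kept their direction and their side of the threshold, or stayed within 1.5 times for a count. A filter of 10 CPM in 5 libraries called 4976 genes for 100 ng/mL against unstimulated, where 7571 were called with the standard filter, and kept 4 of the 8 members in each comparison with 100 ng/mL, since fewer genes were tested. The DESeq2 Wald test called 10 genes for 10 ng/mL against unstimulated, where edgeR called 0, and the cause was not tested. Leaving out each library in turn gave 0 to 1 such genes, 1 of them without 100 ng/mL B, and 6767 to 7876 genes for 100 ng/mL against unstimulated. For Serpina3b at 10 ng/mL, leaving out each library gave log2 fold changes of -0.13 to 0.013, the last without unstimulated D, where the direction turned. With limma on log2(RPKM + 1), which understates low genes, Serpina3n had -1.61 and Serpina3b -0.17 at 100 ng/mL.

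Same-letter libraries of different groups did not deviate together over genes (correlations -0.34 to 0.13), and each library correlated best with one of another letter: unstimulated A to E with 10 ng/mL E, A, B, C and D (0.49 to 0.79), and 10 ng/mL A to E with 100 ng/mL D, E, A, B and C (0.21 to 0.43). The labels state no such pairing and none was fitted, so the counts of calls, among them the 0 at 10 ng/mL, take no account of it. With the labelled letter as a replicate block, 7069 genes and all 8 members were called for 100 ng/mL against unstimulated and 6582 genes for 100 against 10 ng/mL. With few counts, depth limits Serpina3b, Serpina3c, Serpina3k and Serpina3m at 100 ng/mL.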
